A study of Mus musculus with 9 samples.

Results

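The interferon regulatory factor (IRF) genes were examined in CD4+ T cells from mouse spleen that were left unstimulated, activated through the T cell receptor (TCR), or activated in the presence of TNF-related apoptosis-inducing ligand (TRAIL). The members were the 8 genes Irf1, Irf2, Irf3, Irf4, Irf5, Irf7, Irf8 and Irf9, taken by gene name from a table of 55487 genes. All 8 were among the 15536 genes that reached 1 TPM (a transcript abundance scaled by transcript length and to a fixed library total) in at least 3 libraries and were tested. The cells came from wild-type (Trail-r+/+) C57BL/6 females aged 6 to 7 weeks, so every group carried an intact TRAIL receptor, and they were isolated by negative selection. There were 3 groups of 3 libraries. Medium cells received no antibody and no TRAIL, and their time in culture was not given in the sources used here. Stimulated cells received Abs for 24 h, against CD3 at 3 µg/ml and against CD28 at 2 µg/ml. TRAIL-treated cells received the same Abs with TRAIL (10 µg/ml) for 24 h. Nothing states that the 3 libraries of a group came from separate mice, so the p-values measure only the spread between these libraries, which may be technical.

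IRFs share an N-terminal DNA-binding domain that reads the GAAA-containing interferon-stimulated response element (ISRE). IRF3, IRF5 and IRF7 are activated downstream of nucleic acid sensors and switch on type I interferon genes, while IRF9 carries the signal of the type I interferon receptor to DNA. IRF1 activates, and IRF2 largely antagonizes, interferon-responsive genes. IRF4 and IRF8 are closely related members of lymphoid and myeloid cells that bind DNA weakly alone and pair with ETS-family (PU.1, Spi-B) or BATF-JUN proteins. In T cells IRF4 is induced by the TCR and supports expansion and effector differentiation.

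The promoters of Irf4, Irf8, Irf1 and Irf2 are shown because these genes form the 2 pairs, IRF4 with IRF8 and IRF1 with IRF2, whose levels are compared below. Each line gives the 250 bases before the RefSeq start site (GRCm38.p6), 5′ to 3′ on the plus strand, which is the coding strand of all 4 genes. Capitals mark matches, on either strand, to 4 motifs: the interferon-gamma-activated site (GAS, TTCNNNGAA), the ISRE core (a pair of GAAA repeats with 2 bases between them), the AP-1 site (TGANTCA) and the NF-κB consensus. The intervals are chr13:30748983-30749232 for Irf4, chr8:120736108-120736357 for Irf8, chr11:53769764-53770013 for Irf1 and chr8:46739495-46739744 for Irf2.
Irf4: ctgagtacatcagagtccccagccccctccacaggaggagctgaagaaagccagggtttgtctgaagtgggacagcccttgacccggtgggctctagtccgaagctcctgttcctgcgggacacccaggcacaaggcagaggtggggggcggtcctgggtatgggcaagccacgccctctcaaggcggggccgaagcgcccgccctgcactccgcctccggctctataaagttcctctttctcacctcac
Irf8: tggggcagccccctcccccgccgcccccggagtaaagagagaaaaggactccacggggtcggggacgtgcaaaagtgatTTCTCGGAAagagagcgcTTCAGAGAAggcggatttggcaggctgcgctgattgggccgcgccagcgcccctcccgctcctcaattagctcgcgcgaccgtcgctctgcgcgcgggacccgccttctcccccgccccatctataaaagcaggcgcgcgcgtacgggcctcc
Irf1: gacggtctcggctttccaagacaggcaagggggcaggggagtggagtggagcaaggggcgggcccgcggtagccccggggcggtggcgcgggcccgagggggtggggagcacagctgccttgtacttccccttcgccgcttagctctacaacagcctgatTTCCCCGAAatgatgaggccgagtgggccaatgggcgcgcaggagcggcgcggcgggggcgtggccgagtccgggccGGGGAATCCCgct
Irf2: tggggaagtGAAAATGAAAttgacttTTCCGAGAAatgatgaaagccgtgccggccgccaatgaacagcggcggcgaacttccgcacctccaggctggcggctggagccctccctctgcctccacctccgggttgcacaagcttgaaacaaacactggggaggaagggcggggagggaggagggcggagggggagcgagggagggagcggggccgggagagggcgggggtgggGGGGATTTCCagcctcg

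The Irf8 promoter held a pair of GAS matches, TTCTCGGAA and TTCAGAGAA, whose first bases lie at -171 and -153 from the start site. The Irf1 promoter held a GAS match (TTCCCCGAA) at -90 and an NF-κB match (GGGGAATCCC) at -13. In the Irf2 promoter an ISRE core (GAAAATGAAA) at -241 was followed by a GAS match (TTCCGAGAA) at -224 and an NF-κB match (GGGGATTTCC) at -17. None of these matches overlap each other. RefSeq gives Irf1 and Irf8 a second start site each, and those windows, not shown, held no match to the 4 motifs. The Irf4 stretch matched none of the 4 motifs, and neither did the RefSeq windows of Irf3, Irf5, Irf7 and Irf9. Among all 32851 RefSeq mouse promoter windows of 300 bases (250 before and 50 after the start), 8.30% held a GAS match, 3.44% an ISRE core, 7.81% an AP-1 match and 4.51% an NF-κB match. A match is a description of the letters, and no match says only that these letters are not in the window.

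The libraries were alike within groups, with correlations of log2(TPM + 1) between 0.983 and 0.9935, and 13691 to 14909 genes reached 1 TPM in each. Read depth is unknown because TPM keeps no depth, so no counting interval is given. T cell markers were present throughout, and Cd4, the gene that defines the isolated cells, was added after its values were seen. Cd4 averaged 384 ± 44.9 TPM in medium, 220.4 ± 44.0 in stimulated and 384 ± 46.7 in TRAIL-treated cells (SD, n = 3), and Trac, which encodes the constant region of the TCR alpha chain, averaged 929.9, 799.8 and 956 TPM. Cd3g, a CD3 subunit, averaged 615, 299 and 595 TPM and was called lower on activation, with a log2 fold change of -1.04 (limma adjusted p = 4.1e-06). Of the 8 T cell markers, 1 was higher and 3 lower on activation at an adjusted p under 0.05, beside 28.8% and 40.0% of all genes. With TRAIL relative to activation 6 were higher and none lower, beside 33.5% each way. Cd28 (120, 155 and 230 TPM) was higher in both steps and Cd3e (399, 369 and 297 TPM) passed in neither, both named after their values were seen. Markers of other spleen cells were also measured and differed between the groups, as given below.

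In what follows, a gene is said to have risen or fallen where its limma adjusted p was under 0.05, and to have been called where in addition its log2 fold change was at least 1 in size. Fold changes from the fit are on the log2(TPM + 1) scale. The comparison of TRAIL-treated with stimulated cells and that of stimulated with medium cells share the stimulated libraries, so a high or low stimulated library moves both.

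Activation changed 7 of the 8 genes. Irf4, Irf8 and Irf1 rose, Irf3, Irf5, Irf7 and Irf9 fell, and Irf2 did not pass the test. Across all genes tested, 28.8% rose and 40.0% fell. The calls were Irf4 and Irf8 upward, where 12.4% of all genes were called higher, and Irf5 downward, where 19.5% were called lower. The stimulated and medium libraries did not overlap for any of the 8 members, beside 72.6% of all genes. The median log2 fold change of the members was -0.54, and that of all genes tested was -0.15.

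TRAIL during activation changed 3 of the 8 genes relative to activation alone. Irf4 and Irf8 fell and Irf9 rose, whereas the other 5 did not pass the test. In this comparison 33.5% of all genes rose and 33.5% fell. Irf4 and Irf8 were called lower, as were 14.3% of all genes, and no member was called higher, as were 16.6% of all genes. The libraries of Irf4, Irf8 and Irf9 did not overlap, which is 3 of 8 members beside 70.4% of all genes. The median log2 fold change was 0.08 for the members and 0.01 for all genes.

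Set against medium cells, TRAIL-treated cells differed in 5 of the 8 genes. Irf4 and Irf1 were higher and Irf8, Irf3 and Irf5 were lower, while 8.03% of all genes passed upward and 24.6% downward. Irf4 was the member called higher, where 2.49% of all genes were called higher, and no member was called lower, where 2.13% were. The TRAIL-treated and medium libraries did not overlap for 7 of the 8 members, all but Irf9, beside 50.6% of all genes. The median log2 fold change was -0.37 for the members and -0.18 for all genes.

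**Figure D1:**
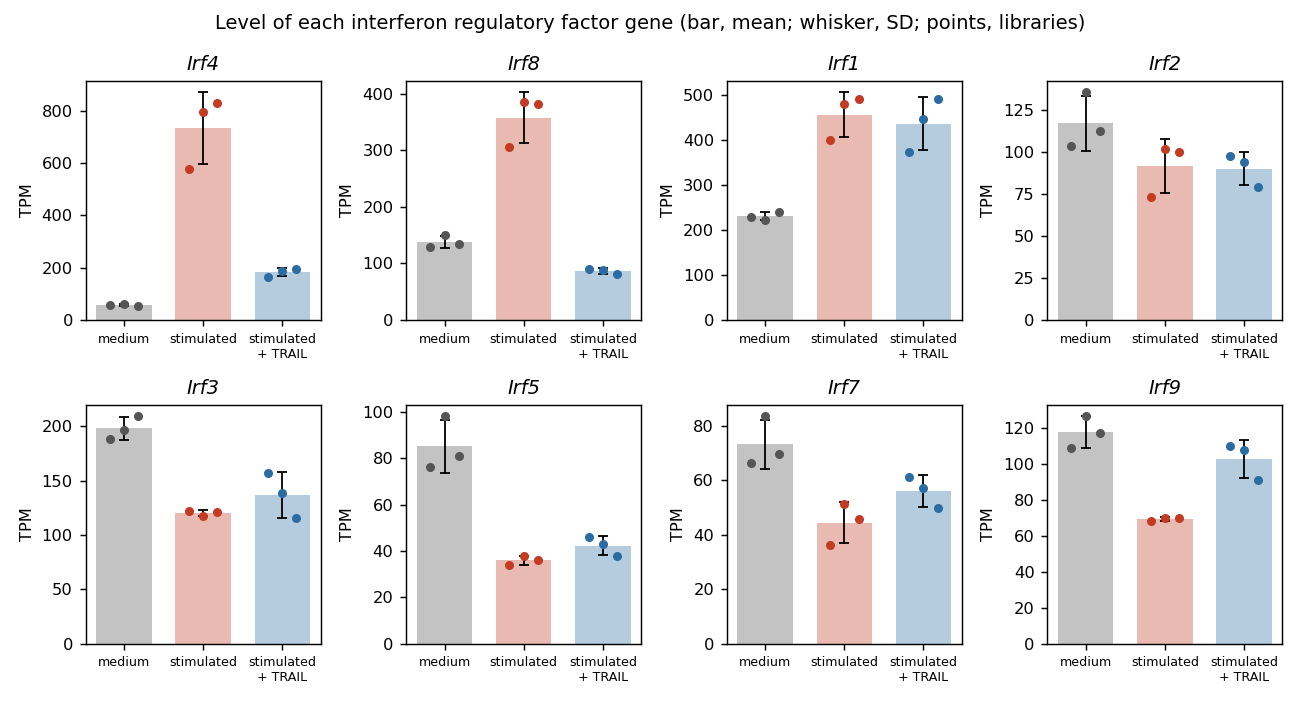
Level of each IRF gene in TPM (vertical axis, from 0, a scale of its own in each panel) in medium, stimulated and TRAIL-treated cells. Bars are means, whiskers SDs and points the 3 libraries of a group. Irf4 and Irf8 stand highest in stimulated cells, Irf1 is high in both activated groups, and Irf3, Irf5, Irf7 and Irf9 are lowest on average in stimulated cells.

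Irf4 (ENSMUSG00000021356, chromosome 13, 30749226 to 30766976, plus strand, GRCm38), the factor induced by TCR signals, measured 55.6, 61.5 and 54.6 TPM in the medium libraries. It reached 578, 794 and 829.6 TPM in stimulated and 166, 189 and 195 TPM in TRAIL-treated libraries. Every stimulated library was above every TRAIL-treated library, and these in turn were above every medium library. The means were 57.2 ± 3.69, 734 ± 136 and 183 ± 15.1 TPM (SD, n = 3), a level 12.8-fold higher in stimulated than in medium cells and 4.0-fold lower in TRAIL-treated than in stimulated cells. The log2 fold change was 3.64 (SE 0.14, limma adjusted p = 7.74e-09) on activation, and -1.98 (SE 0.14, adjusted p = 6.53e-07) with TRAIL relative to activation alone. TRAIL-treated cells remained 3.20-fold above medium cells, with a log2 fold change of 1.66 (95% confidence interval 1.35 to 1.97, limma adjusted p = 2.74e-05).

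Irf8 (ENSMUSG00000041515, chromosome 8, 120736358 to 120756694, plus strand), the relative of Irf4 known best from B cells, monocytes and dendritic cells, measured 129, 150.1 and 135 TPM in medium. Its stimulated libraries stood at 306, 386 and 382 TPM, and its TRAIL-treated libraries at 90.6, 88.0 and 80.8 TPM. The 3 groups did not overlap, and here the TRAIL-treated group was the lowest. The means were 138 ± 10.8, 358 ± 45.0 and 86.5 ± 5.09 TPM (SD, n = 3), so the level was 2.59-fold higher on activation and 4.14-fold lower with TRAIL than with activation alone. The log2 fold changes were 1.36 (SE 0.11, limma adjusted p = 2.14e-06) and -2.03 (SE 0.11, adjusted p = 1.26e-07). Against medium, TRAIL-treated cells were lower by a log2 fold change of -0.67 (SE 0.11, limma adjusted p = 0.00201), which passed the test but was under the limit for a call.

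The ratio of Irf4 to Irf8 TPM compares the changes of the pair within each library. It was 0.431, 0.409 and 0.405 in the medium libraries, 1.89, 2.06 and 2.17 in the stimulated and 1.84, 2.14 and 2.41 in the TRAIL-treated libraries. The activated groups overlapped each other and lay above every medium library. The ratio of TRAIL-treated to stimulated cells differed by 0.06 on the log2 scale (exact permutation test, two-sided p = 0.8), and both activated groups differed from medium by 2.30 and 2.35 with p = 0.1 by the same exact permutation test, the smallest that 3 against 3 libraries allow. The level of Irf4 in units of Irf1 followed another course, with means of 0.249 ± 0.0250 in medium, 1.60 ± 0.133 in stimulated and 0.423 ± 0.0241 in TRAIL-treated cells (SD, n = 3), and none of the groups overlapped.

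Irf1 (ENSMUSG00000018899, chromosome 11, 53770014 to 53778374, plus strand), an activator of antigen presentation and interferon-gamma response genes, measured 229, 222 and 239.9 TPM in medium libraries. It measured 399, 478 and 489.5 TPM in stimulated and 372, 446 and 489 TPM in TRAIL-treated libraries. Both activated groups lay above all medium libraries and overlapped each other. The means were 231 ± 8.85, 455 ± 49.5 and 436 ± 59.1 TPM (SD, n = 3). The rise over medium was 0.97 on the log2 scale (SE 0.12, limma adjusted p = 4.5e-05) in stimulated cells and 0.91 (SE 0.12, adjusted p = 0.000542) in TRAIL-treated cells, both just under the limit for a call. Without stimulated replicate 1 the former became 1.07 and without TRAIL-treated replicate 1 the latter became 1.02, which would be called. TRAIL-treated and stimulated cells differed by -0.07 (95% confidence interval -0.34 to 0.20, limma adjusted p = 0.645), an estimate that turned to 0.03 under median-of-ratios scaling, 0.04 under quantile normalization and 0.04 without TRAIL-treated replicate 1.

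Irf2 (ENSMUSG00000031627, chromosome 8, 46739732 to 46847458, plus strand), the antagonist of Irf1 at shared sites, passed the test in no comparison. Its levels were 104, 135 and 112 TPM in medium, 73.1, 102 and 99.9 TPM in stimulated, and 97.4, 93.7 and 78.9 TPM in TRAIL-treated libraries. All libraries of the activated groups were below the lowest medium library, but the distance was small beside the spread within groups. The log2 fold change was -0.36 (SE 0.15, limma adjusted p = 0.0588) on activation and -0.37 (SE 0.15, adjusted p = 0.0875) for TRAIL-treated against medium cells. Between TRAIL-treated and stimulated cells it was -0.01 (95% confidence interval -0.36 to 0.33, limma adjusted p = 0.937), with a sign that turned under other scalings. The difference on activation did pass when TPM was rescaled without mitochondrial, immunoglobulin and haemoglobin genes (-0.47, limma adjusted p = 0.0186), under quantile normalization (-0.43, adjusted p = 0.00999), without medium replicate 1 (-0.44, adjusted p = 0.0472) and without stimulated replicate 2 (-0.44, adjusted p = 0.0433), and the difference between TRAIL-treated and medium cells passed without stimulated replicate 1 (-0.37, adjusted p = 0.0285). The ratio of Irf1 to Irf2 TPM was 2.00 ± 0.309 in medium, 5.02 ± 0.391 in stimulated and 4.93 ± 1.2 in TRAIL-treated cells (SD, n = 3). The ratio of the 2 activated groups overlapped (log2 difference -0.05, exact permutation p = 0.9), and both were above all medium libraries (exact permutation p = 0.1 each).

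Irf3 (ENSMUSG00000003184, chromosome 7, 44997648 to 45002848, plus strand), which is kept in the cytoplasm until TBK1 phosphorylates it, measured 188, 197 and 209 TPM in medium. It measured 122, 117 and 121 TPM in stimulated and 157, 139 and 115 TPM in TRAIL-treated libraries. The stimulated libraries were close together, whereas TRAIL-treated replicate 3 lay below all of them and the other 2 above. Irf3 fell on activation by 0.71 on the log2 scale (SE 0.11, limma adjusted p = 0.000269), and it was lower in TRAIL-treated than in medium cells, with a log2 fold change of -0.54 (adjusted p = 0.00621). TRAIL-treated and stimulated cells differed by 0.18 (95% confidence interval -0.08 to 0.43, limma adjusted p = 0.191), which became 0.30 (adjusted p = 0.0234) without TRAIL-treated replicate 3 and 0.38 (adjusted p = 0.00484) under quantile normalization. It also passed at 0.27 under median-of-ratios scaling (limma adjusted p = 0.0307) and at 0.27 when TPM was rescaled in the same way as for Irf2 (adjusted p = 0.0475).

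Irf7 (ENSMUSG00000025498, chromosome 7, 141262706 to 141266481, minus strand), the interferon-inducible amplifier of type I interferon production, measured 66.4, 83.6 and 69.6 TPM in medium, 36.4, 51.2 and 45.7 TPM in stimulated, and 61.4, 57.3 and 49.8 TPM in TRAIL-treated libraries. The TRAIL-treated group lay between the other 2 and overlapped the stimulated one. Irf7 fell on activation, with a log2 fold change of -0.71 (SE 0.14, limma adjusted p = 0.00134). The TRAIL-treated cells differed from stimulated cells by 0.34 (95% confidence interval 0.02 to 0.66, limma adjusted p = 0.0592) and from medium cells by -0.37 (adjusted p = 0.072), so neither passed, although the latter did without stimulated replicate 1 (adjusted p = 0.0263) and when the fit held the 2 groups compared alone (adjusted p = 0.042). The difference from stimulated cells did pass under median-of-ratios scaling (0.43, limma adjusted p = 0.00368), under quantile normalization (0.43, adjusted p = 0.00346), when rescaled in the way given for Irf2 (0.43, adjusted p = 0.0219), without stimulated replicate 2 (0.45, adjusted p = 0.0271) and without TRAIL-treated replicate 3 (0.42, adjusted p = 0.0419).

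Irf9 (ENSMUSG00000002325, chromosome 14, 55603571 to 55610030, plus strand), a DNA-binding subunit of the complex that type I interferon activates, was the member that rose with TRAIL relative to activation, as did all the B cell, macrophage and monocyte, and erythroid markers given below. It measured 109, 126 and 117 TPM in medium, 68.0, 70.1 and 69.9 TPM in stimulated, and 110.0, 108 and 90.7 TPM in TRAIL-treated libraries. All stimulated libraries were below all others, and the TRAIL-treated range overlapped that of medium. The log2 fold change was -0.75 (SE 0.10, limma adjusted p = 7.68e-05) on activation and 0.56 (SE 0.10, adjusted p = 0.000636) with TRAIL relative to activation alone. TRAIL-treated and medium cells differed by -0.19 (95% confidence interval -0.42 to 0.03, limma adjusted p = 0.163).

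Irf5 (ENSMUSG00000029771, chromosome 6, 29526625 to 29541871, plus strand), a factor of B cells and myeloid cells that acts downstream of MyD88, measured 76.3, 98.1 and 80.7 TPM in medium. It measured 33.9, 37.9 and 36.1 TPM in stimulated and 46.0, 43.0 and 37.8 TPM in TRAIL-treated libraries. Both activated groups lay below every medium library and touched each other, since TRAIL-treated replicate 3 was just under stimulated replicate 2. The mean level was 2.36-fold lower in stimulated than in medium cells, with a log2 fold change of -1.21 (SE 0.12, limma adjusted p = 7.62e-06). In TRAIL-treated cells it was -0.99 relative to medium (SE 0.12, limma adjusted p = 0.000291), at the edge of a call, and became -1.06 without medium replicate 1, -1.02 without medium replicate 3, -1.05 without TRAIL-treated replicate 1 and -1.0 without TRAIL-treated replicate 2, which would be called. It would also be called with a pseudocount of 0.1 (-1.0) and when TPM was rescaled (-1.0). The difference between TRAIL-treated and stimulated cells was 0.22 (95% confidence interval -0.04 to 0.49, limma adjusted p = 0.118), and it passed at 0.32 (adjusted p = 0.00986) under median-of-ratios scaling, at 0.28 (adjusted p = 0.0261) under quantile normalization and at 0.32 (adjusted p = 0.0356) when TPM was rescaled without mitochondrial, immunoglobulin and haemoglobin genes.

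Several members share exons with a neighbour, and the sources used here do not state whether reads were assigned by strand. Irf5 overlaps 8 exon pairs of Tnpo3 on the opposite strand, and Tnpo3 averaged 70.8, 87.2 and 63.4 TPM in the medium, the stimulated and the TRAIL-treated group. Irf9 overlaps 4 exon pairs of Rnf31 on the same strand, which averaged 51.0, 46.0 and 38.8 TPM. Irf7 shares 3 exon pairs with Phrf1, Irf3 shares 2 with Bcl2l12 and Irf1 shares 2 with Gm17334, all on opposite strands. Reads of those stretches could belong to either gene, so the values of these 5 members are less certain than those of Irf2, Irf4 and Irf8, which share no exon.

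**Figure D2:**
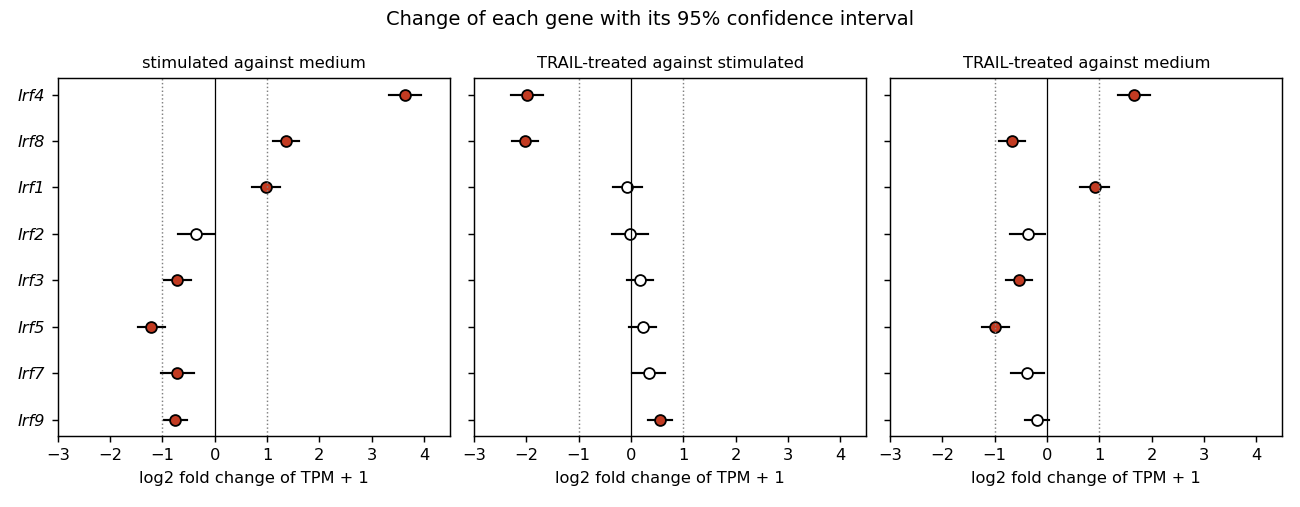
Log2 fold change of TPM + 1 (horizontal axis) for each IRF gene in the 3 comparisons, with 95% confidence intervals as lines. Filled points passed at an adjusted p under 0.05, open points did not, and dotted lines mark the limit of 1 for a call. Irf4 and Irf8 sit beyond -1 with TRAIL, at -1.98 and -2.03, and the other 6 lie between -0.07 and 0.56.

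The members also changed rank, and TPM, being scaled by transcript length, allows levels to be compared between genes. In medium the order by mean TPM ran Irf1, Irf3, Irf8, Irf9, Irf2, Irf5, Irf7 and Irf4, where the neighbours Irf9 and Irf2, and Irf5 and Irf7, overlapped. In stimulated cells the order was Irf4, Irf1, Irf8, Irf3, Irf2, Irf9, Irf7 and Irf5, with an overlap between Irf7 and Irf5. In TRAIL-treated cells it was Irf1, Irf4, Irf3, Irf9, Irf2, Irf8, Irf7 and Irf5, with overlaps from Irf9 to Irf2 and from Irf2 to Irf8. Irf4 thus moved from the lowest member to the highest on activation, and stood behind Irf1 with TRAIL.

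The summed TPM of the 8 genes was 958, 1074 and 1019 in medium, 1616, 2036 and 2073 in stimulated, and 1102, 1163 and 1138 in TRAIL-treated libraries. Irf4 made up 5.63 ± 0.237% of that sum in medium, 38.3 ± 2.23% in stimulated and 16.2 ± 1.02% in TRAIL-treated cells (SD, n = 3). The share of Irf1 was 22.7 ± 1.78% and 23.9 ± 0.654% in the first 2 groups and 38.4 ± 4.61% with TRAIL. Irf8 made up 13.6 ± 0.374%, 18.8 ± 0.305% and 7.63 ± 0.565%, and Irf3 made up 19.5 ± 1.12%, 6.39 ± 1.02% and 12.1 ± 2.09%. With TRAIL every sum lay above the medium sums and below the stimulated sums, with larger mean shares of Irf1 and Irf4 and smaller mean shares of the other 6 genes than in medium.

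**Figure D3:**
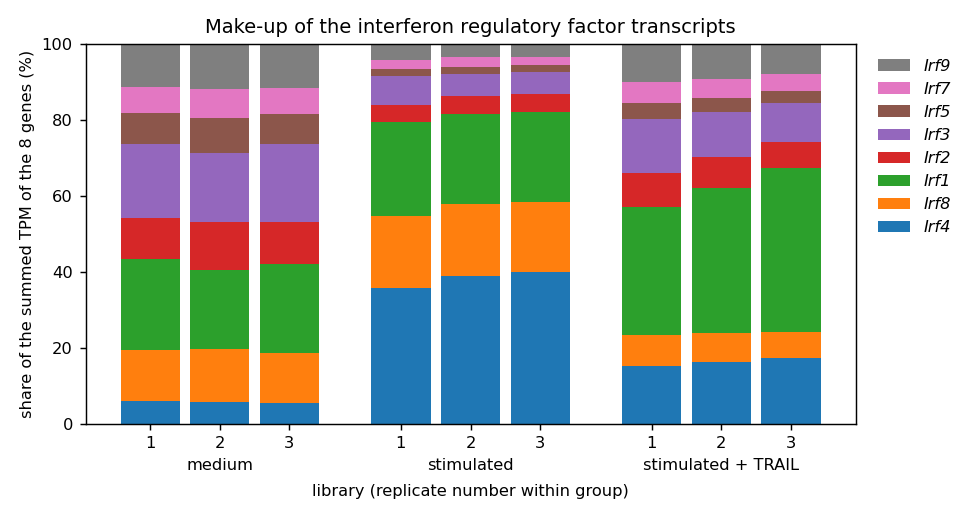
Share (%) of each gene in the summed TPM of the 8 IRF genes, 1 bar for each library, grouped as medium, stimulated and TRAIL-treated. Irf4 fills 35.8 to 40.0% of the stimulated bars against 5.36 to 5.81% in medium and 15.1 to 17.1% with TRAIL, where Irf1 takes 33.8 to 43.0%.

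For each member called in a comparison, the 3 genes with the most similar profile were found among 9588 genes whose mean was 10 TPM or more, by the root-mean-square difference of centred log2(TPM + 1) over the 9 libraries. Irf4 was nearest to Spry1, a Sprouty inhibitor of receptor signaling (difference 0.212, with means of 2.95, 54.0 and 11.6 TPM in the medium, the stimulated and the TRAIL-treated group), followed by the mitochondrial threonine tRNA mt-Tt (0.268) and the stress-responsive sestrin Sesn2 (0.270). Irf8 was nearest to Zc3h12d, an RNA-binding zinc finger gene (0.0654, with means of 36.5, 102 and 24.9 TPM), then Noc4l (0.105) and Lta, which encodes lymphotoxin alpha (0.110). Irf5 was nearest to Ly6e (0.0748, with means of 1355, 591 and 695 TPM), then Hdac10 (0.0804) and Tmem229b (0.0853). These are likenesses of pattern over libraries of 3 groups, given without a test.

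The genes that work with the family are described next, by lists whose members act before IRFs, bind beside them or respond to them. Among 16 sensors, adaptors and kinases upstream of IRF3, IRF5 and IRF7, 3 rose and 10 fell on activation, with 6 called lower, beside 28.8%, 40.0% and 19.5% of all genes. With TRAIL relative to activation alone, 6 rose (5 called) and 5 fell (1 called), beside 33.5% (16.6%) and 33.5% (14.3%) of all genes. The median log2 fold changes of the list were -0.47 and -0.02 beside -0.15 and 0.01 for all genes. Tlr9, the endosomal DNA sensor, averaged 43.7 ± 6.20, 4.73 ± 1.98 and 16 ± 1.71 TPM in the medium, the stimulated and the TRAIL-treated group (SD, n = 3). Ddx58, which encodes the RNA sensor RIG-I, averaged 164 ± 7.57, 34.6 ± 9.43 and 121 ± 18.3 TPM, and Ikbke, a kinase of IRF3 and IRF7, 251 ± 17.4, 99.7 ± 26.9 and 239 ± 34.2 TPM. All 3 fell on activation and rose with TRAIL relative to it, with log2 fold changes of 1.63, 1.80 and 1.28 (limma adjusted p = 0.00015, 1e-05 and 0.00017). Tlr3, an endosomal RNA sensor, was at 4.17 to 6.09, 0.0001 to 0.105 and 1.73 to 1.90 TPM. Against medium, TRAIL-treated cells showed 8 of the 16 lower and none higher, beside 24.6% and 8.03% of all genes.

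Of 14 DNA-binding partners and cofactors, 5 rose and 5 fell on activation, beside 28.8% and 40.0% of all genes, and 7 rose and 7 fell with TRAIL relative to activation, beside 33.5% of all genes each way. The list medians were 0.01 and -0.06. The ETS partner Spib averaged 186 ± 21.3 TPM in medium, 7.64 ± 1.05 in stimulated and 68.3 ± 10.7 in TRAIL-treated cells. Batf3, a partner of IRF4 and IRF8 at AP-1-IRF composite elements, went the other way at 4.07 ± 0.635, 29.6 ± 3.01 and 4.91 ± 1.22 TPM, with log2 fold changes of 2.60 on activation and -2.39 with TRAIL (limma adjusted p = 4e-07 and 7.8e-07). Junb, the JUN subunit that pairs with BATF, averaged 1069 ± 57.9, 557 ± 15.6 and 2192 ± 154 TPM, and so rose with TRAIL by 1.97 on the log2 scale (adjusted p = 3.6e-08). Jund rose in both steps, at 467 ± 47.0, 577 ± 42.2 and 807 ± 40.9 TPM.

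Interferon receptors and Janus kinases divided in another manner. Of 7 genes, 1 rose (called) and 5 fell (1 called) on activation, beside 28.8% (12.4%) and 40.0% (19.5%) of all genes. With TRAIL relative to activation, 5 rose (4 called) and 1 fell (called), beside 33.5% (16.6%) and 33.5% (14.3%) of all genes. The list medians were -0.65 and 1.15 beside -0.15 and 0.01 for all genes. Against medium, 3 of the 7 were higher in TRAIL-treated cells and none lower, beside 8.03% and 24.6% of all genes. Ifngr2, a chain of the interferon-gamma receptor, averaged 36.0 ± 0.727 TPM in medium, 36.0 ± 0.772 TPM in stimulated cells and 90.8 ± 3.85 TPM with TRAIL (log2 fold change 1.31 relative to activation, limma adjusted p = 2.7e-07). Ifngr1 averaged 179.6, 133 and 297 TPM and Jak1 507, 216 and 519 TPM. Jak2, which serves the same receptor, had the opposite course at 92.9 ± 3.34, 235 ± 38.9 and 85.5 ± 5.36 TPM, with a log2 fold change of -1.44 with TRAIL (limma adjusted p = 3.1e-06).

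Of 10 interferon genes, Ifng alone reached the level for a test. It averaged 9.19 ± 1.30 TPM in medium, 216 ± 31.1 in stimulated and 41.3 ± 9.21 in TRAIL-treated cells (SD, n = 3), and its log2 fold changes were 4.41 on activation and -2.37 with TRAIL (limma adjusted p = 8.7e-09 and 8.3e-07). Ifnb1, the interferon gene that IRF3 and IRF7 induce, was listed at no more than 0.271 TPM in any library, and Ifna4 at no more than 0.192 TPM.

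Among 19 interferon-gamma and IRF1 target genes, 14 rose and 3 fell on activation, with 8 called higher, beside 28.8%, 40.0% and 12.4% of all genes. With TRAIL relative to activation, 2 rose and 15 fell, with 14 called lower, beside 33.5%, 33.5% and 14.3% of all genes, and the list medians were 0.86 and -1.31 beside -0.15 and 0.01 for all genes. Gbp2, an interferon-gamma-induced GTPase, averaged 60.3 ± 3.55 TPM in medium, 1213 ± 21.9 in stimulated and 46.4 ± 2.18 in TRAIL-treated cells, so its level was 26.2-fold lower with TRAIL than with activation alone (log2 fold change -4.68, limma adjusted p = 1.1e-10). Igtp averaged 118 ± 6.86, 648 ± 31.6 and 116 ± 7.18 TPM, Socs1, an inhibitor of Janus kinases, 5.84 ± 0.930, 123 ± 21.7 and 12.2 ± 1.37 TPM, and the immunoproteasome subunit Psmb8 238 ± 13.9, 450.4 ± 23.4 and 155 ± 19.1 TPM. All 3 fell with TRAIL relative to activation, by -2.47, -3.23 and -1.54 on the log2 scale, while Irf1 itself differed by -0.07. Against medium, 3 of the 19 were higher and 13 lower in TRAIL-treated cells, beside 8.03% and 24.6% of all genes, with a median of -0.48 beside -0.18.

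Of 23 type I interferon-stimulated genes, 6 rose and 9 fell on activation, shares near the 28.8% and 40.0% of all genes. With TRAIL relative to activation 7 rose and 10 fell, beside 33.5% of all genes each way, and the list medians were -0.23 and -0.16 beside -0.15 and 0.01 for all genes. The antiviral genes Rtp4 (55.9, 14.8 and 35.2 TPM in the medium, the stimulated and the TRAIL-treated group) and Mx1 (17.2, 4.56 and 10.6 TPM) fell on activation and rose with TRAIL relative to it, by log2 fold changes of 1.22 and 1.08 (limma adjusted p = 1.6e-05 and 7.1e-05). Zbp1, a sensor of Z-form nucleic acid, ran the other way at 107, 226 and 78.2 TPM. Ifi27l2a, the most abundant of the list, passed in no comparison, at 356 ± 108, 288 ± 44.8 and 300.1 ± 36.5 TPM. Against medium, 14 of the 23 were lower in TRAIL-treated cells and 1 was higher, beside 24.6% and 8.03% of all genes.

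Of 9 helper T cell genes linked to IRF4, 7 rose on activation, all 7 called, and 2 fell, 1 of them called. Across all genes 28.8% rose (12.4% called) and 40.0% fell (19.5% called). With TRAIL relative to activation 6 fell, all called, and 2 rose, 1 of them called. Across all genes 33.5% fell (14.3% called) and 33.5% rose (16.6% called). The list medians were 1.78 and -1.19 beside -0.15 and 0.01 for all genes. Il21, a cytokine of follicular helper T cells, was at 1.53 ± 0.592 TPM in medium, 346 ± 0.555 in stimulated and 1.0 ± 0.193 in TRAIL-treated cells, a log2 fold change of -7.43 with TRAIL (limma adjusted p = 3.5e-10). Il4 averaged 0.740 ± 0.928, 28.3 ± 5.62 and 1.5 ± 0.286 TPM, and Gata3, the regulator of Th2 cells, 32.3 ± 5.58, 99.7 ± 14.0 and 43.1 ± 4.54 TPM. Bcl6, the repressor that defines follicular helper cells, had the reverse pattern at 33.3 ± 3.38, 6.74 ± 1.35 and 35.3 ± 2.71 TPM.

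**Figure D4:**
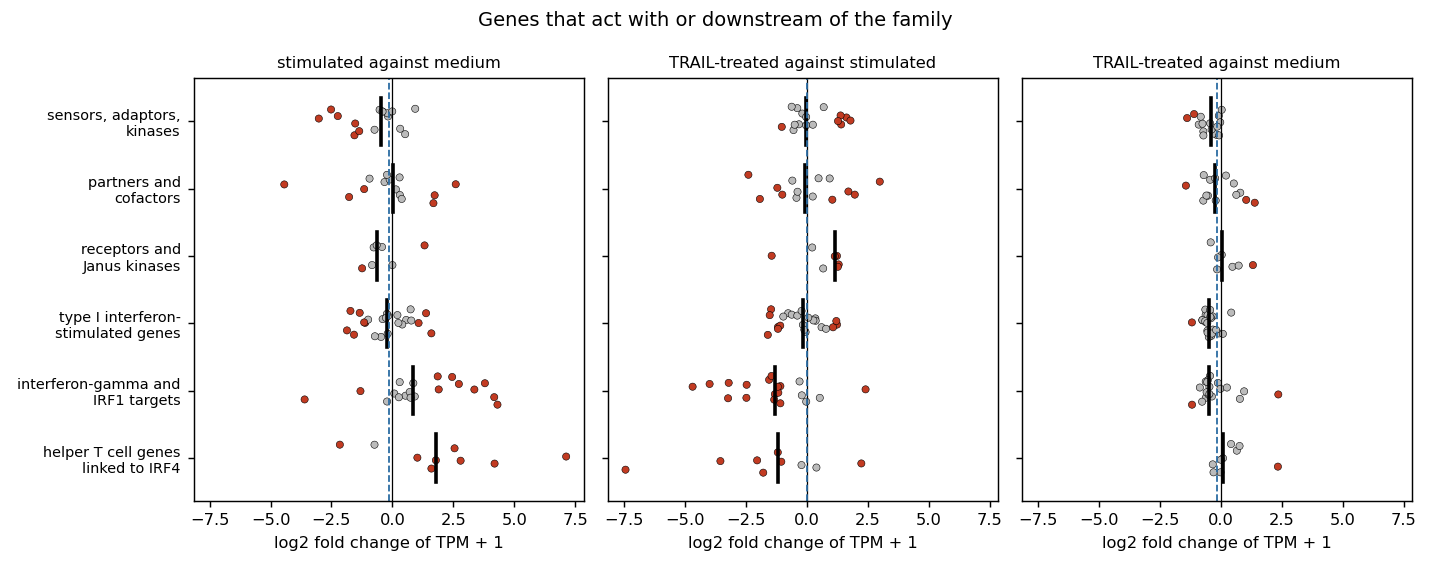
Log2 fold change of TPM + 1 (horizontal axis) of each gene in 6 lists around the IRF family, in the 3 comparisons. Points are genes, red where called, black ticks are list medians and the dashed line is the median of all genes tested. Interferon-gamma and IRF1 targets have a median of 0.86 on activation and -1.31 with TRAIL relative to activation.

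Irf5, Irf8 and Tlr9 are also genes of B cells, macrophages and dendritic cells, and Spib is one of B cells and dendritic cells. The markers of these cells are given here beside the members. The sum of the 10 B cell markers ranged over 2464 to 2586 TPM (medium), 204 to 229 TPM (stimulated) and 1034 to 1174 TPM (TRAIL-treated). All 10 fell on activation and rose with TRAIL relative to it, where Cd79a averaged 555, 23.3 and 268 TPM and Cd79b 504, 33.8 and 179 TPM. The 10 macrophage and monocyte markers summed to 1971 to 2167, 83.9 to 91.9 and 1695 to 1930 TPM, and again all 10 fell on activation and rose with TRAIL relative to it. Lyz2 averaged 545, 7.48 and 346 TPM and Hmox1 379, 53.1 and 424 TPM. The 8 dendritic cell markers summed to 71.1 to 75.4, 10.1 to 13.7 and 43.5 to 48.3 TPM, with Xcr1 and Cd209a, named after their values were seen, at the table's floor in at least 1 stimulated library. On activation 7 of the 8 fell and 1 rose, and with TRAIL relative to activation 7 rose and 1 fell. Itgax averaged 29.8, 3.06 and 16.6 TPM and Siglech 10.0, 0.206 and 7.43 TPM. The 8 T cell markers summed to 3219 to 3530, 2608 to 2666 and 3152 to 3572 TPM.

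Irf8 was highest in the stimulated libraries, where the B cell, macrophage and dendritic cell sums were lowest. Those sums were highest in medium and intermediate with TRAIL, whereas Irf8 was intermediate in medium and lowest with TRAIL. Irf5 was highest in medium, where those sums were highest, and lower in both activated groups. Between TRAIL-treated and stimulated cells Irf5 differed by 0.22 (limma adjusted p = 0.118), and by 0.28 to 0.32 under the other scalings given above, where it passed. Those sums were higher in TRAIL-treated than in stimulated cells by more than the spread within groups. The 7 erythroid markers summed to 2137 to 2585, 24.8 to 39.6 and 619 to 669 TPM, and all 7 fell on activation and rose with TRAIL relative to it, with Hba-a2 at 649, 6.01 and 171 TPM and Hba-a1 at 634, 9.48 and 177 TPM on average. The 6 CD8 and NK cell markers summed to 226 to 255, 122 to 133 and 85.9 to 94.3 TPM, with Cd8b1 at 74.8, 55.8 and 34.4 TPM and Cd8a at 39.0, 45.0 and 14.1 TPM. On activation 5 of the 6 fell and none rose, beside 40.0% and 28.8% of all genes. With TRAIL relative to activation 2 fell, Cd8a and Cd8b1, and 2 rose, beside 33.5% each way. The 2 that rose were Ncr1 (40.1, 2.64 and 8.44 TPM) and Klrb1c (24.9, 3.13 and 7.67 TPM), NK cell genes named after their values were seen. Irf9 fell on activation and rose with TRAIL relative to it, as the B cell, macrophage and erythroid markers did, and the mean levels of Irf3 and Irf7 were also lowest in stimulated cells. The part of other cells in the levels of any member was not tested. In bulk RNA, fewer cells of a type and less RNA per cell cannot be told apart.

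**Figure D5:**
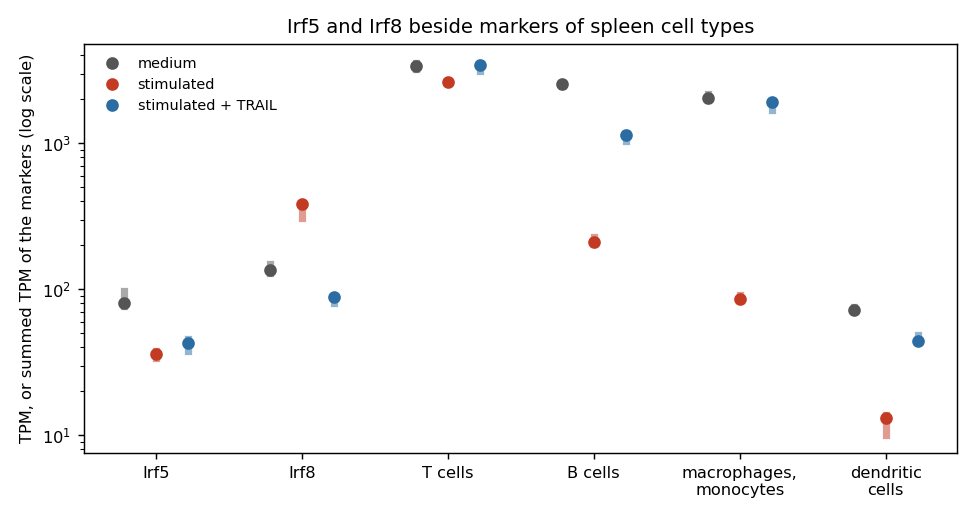
TPM of Irf5 and Irf8, and summed TPM of marker lists for T cells, B cells, macrophages with monocytes, and dendritic cells, on a log scale, in medium, stimulated and TRAIL-treated libraries. Points are medians and bars run from the lowest to the highest of 3 libraries. In stimulated libraries Irf8 lies at 306 to 386 TPM while the B cell sum lies at 204 to 229 TPM and the macrophage and monocyte sum at 83.9 to 91.9 TPM. In the same order they lie at 129 to 150, 2464 to 2586 and 1971 to 2167 TPM in medium. With TRAIL they lie at 80.8 to 90.6, 1034 to 1174 and 1695 to 1930 TPM.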

How the data were processed

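RNA from splenic CD4+ T cells was made into 9 libraries with a SureSelect XT HS2 mRNA kit and sequenced as paired ends. The study's methods give Trimmomatic for quality control, HISAT2 for alignment to GRCm38 and DESeq2 for normalizing feature counts, and the submitters' processing notes list Trimmomatic 0.36, HISAT2 2.1.0, SAMtools 1.2 and StringTie 2.1.2. The authors deposited TPM per gene for all 9 libraries in 1 table, and how TPM was computed is not given in the sources used here. The notes list GRCh38, while the gene positions in the file are those of mouse GRCm38 for every member. Because TPM is not a count, no count test was run. Values were tested as log2(TPM + 1) with limma 3.58.1 (trended empirical Bayes) in R 4.3.3, over the 15536 of 55487 genes that reached 1 TPM in 3 libraries or more, all 9 libraries in 1 fit, with Benjamini-Hochberg adjustment over all genes tested. A call needed an adjusted p under 0.05 and a log2 fold change of at least 1 in size. Ratios were compared by exact permutation. Named genes were every member, up to 4 genes per list by size of change or mean TPM, the 2 highest of each marker list, and the 3 nearest profiles of each called member. Some further markers were named after their values were seen, as stated where they appear. Members and lists were chosen with earlier results of these data known. Promoters came from RefSeq, where all 8 members matched. The fit was tested on simulated data. The 23 alternatives cover pseudocount, filter, scaling, variance model, replicate block, thresholds and leaving out each library.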

Additional observations from a re-analysis of the deposited data

How the results depend on the processing

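The changes of Irf4 and Irf8 in all 3 comparisons, and of Irf9 with TRAIL relative to activation, passed in all 23 alternatives with the same direction, from 3.53 to 3.80, -2.14 to -1.84 and 1.60 to 1.85 for Irf4, 1.25 to 1.47, -2.14 to -1.85 and -0.71 to -0.48 for Irf8, and 0.51 to 0.72 for Irf9. The changes of Irf1, Irf3 and Irf5 against medium in both activated groups, and of Irf7 and Irf9 on activation, also passed in all 23. Of 552 alternative values for the members, 522 kept their direction and were called or not called as before, although 19 of these crossed the adjusted p limit of 0.05 below the fold limit, 20 became calls, some of them for want of the fold limit, and 10 reversed. Calls among the members numbered 3, 2 and 1 (activation, TRAIL relative to activation, TRAIL against medium). The replicate block left them at 3, 2 and 1 and changed no call of a member, with 4960, 4802 and 714 calls over all genes, and it is not part of the design, since same-numbered libraries correlated from -0.31 to 0.29 in their deviations. With no fold limit the counts were 7, 3 and 5. The last count became 2 with a pseudocount of 0.1, under median-of-ratios scaling and when rescaled without mitochondrial, immunoglobulin and haemoglobin genes, and ranged from 1 to 3 when leaving out 1 library (2 without medium replicate 1, medium replicate 3 or TRAIL-treated replicate 2, and 3 without TRAIL-treated replicate 1). Leaving out 1 library gave 3 to 4 calls for activation and 2 throughout for TRAIL relative to activation.

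TRAIL relative to activation, Irf1 (-0.07) reversed to 0.030 under median-of-ratios scaling, 0.036 under quantile normalization and 0.028 when rescaled, with -0.159 to 0.0425 when leaving out 1 library. Irf2 (-0.01) reversed to 0.081, 0.15 and 0.079 in the same order, with -0.168 to 0.0764 when leaving out 1 library. Irf1 was called on activation under median-of-ratios scaling (1.07) and without medium replicate 3 (1.00), and for TRAIL against medium under median-of-ratios scaling (1.10). Against all genes, quantile normalization moved the median by 0.17 on activation and median-of-ratios scaling moved it by 0.17 for TRAIL against medium. The share of calls that were higher moved from 38.8% to 50.2% on activation (quantile), and from 53.9% to 74.2% (median-of-ratios) or 70.6% (quantile) for TRAIL against medium. Calls over all genes, 4959, 4800 and 718, became 10678, 10420 and 5063 with no fold limit, 2946, 2883 and 332 with a pseudocount of 5, and 1167 in the last comparison with a pseudocount of 0.1. Why these values moved was not tested. Depth is unknown, and 3 libraries a group limit the exact permutation tests of ratios to p = 0.1.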
